A study of Mus musculus with 4 samples.

Results

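Mural-like and fibroblast-like nuclei were a rare fraction of the hippocampal nuclei profiled here, 57 of 43592 barcodes with 1000 or more unique molecular identifiers (UMIs, which count RNA molecules). They were selected on their own counts. A member had UMIs of at least 2 of the 6 genes Pdgfrb, Rgs5, Abcc9, Slc6a13, Bnc2 and Col1a2, with 4 or more UMIs of these together. It had at most 1 UMI each of the endothelial gene Flt1 and the neuronal gene Rbfox3, and at most 1 over the neuronal genes Slc17a7, Gad1 and Gad2. The levels of these 11 genes in the members follow from that choice and are given only as a description. Nuclear RNA was sequenced from adult mouse hippocampus with the 10x Genomics Chromium kit in 4 libraries. The 2 Control libraries came from Kat6a-f/f mice, whose Kat6a gene, which encodes a histone acetyltransferase, is flanked by loxP sites. The 2 Kat6a-cKO libraries came from mice with the same floxed Kat6a and the NEX-cre driver, which places Cre recombinase at Neurod6, a locus of forebrain excitatory neurons. All 4 libraries thus carry the floxed allele, and no library carries NEX-cre alone. Sex, exact age and pooling of animals are not given in the labels, and nothing in them says that the libraries came from separate animals, so p-values measure the spread between these libraries.

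Mural cells wrap the wall of blood vessels. Pericytes sit on capillaries within the basement membrane shared with the endothelium, depend on PDGF signalling through PDGFRβ and carry the KATP channel subunit encoded by Abcc9, whereas vascular smooth muscle cells ring arterioles and contain the contractile proteins encoded by Acta2 and Myh11. Fibroblasts of the brain lie in the meninges and in the perivascular space of larger vessels, where they make fibrillar collagens, laminins and solute carriers. The Cre driver of this model is not directed to any of these cell types, so the comparison of genotypes in the members concerns cells that the deletion is not aimed at.

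The members numbered 15 and 10 in Control 1 and 2 and 20 and 12 in Kat6a-cKO 1 and 2. Their summed counts were 46015, 29233, 53299 and 25000 UMIs in the same order, against library totals of 171323466 to 186897245. Members held 1137 to 7934 UMIs each. Their medians per library were 3084 and 2461 UMIs in Control against 2040.5 and 2038.5 in Kat6a-cKO. All were well below the 11206 to 12365 of all barcodes of the same libraries. No member barcode occurred in more than 1 library, while pairs of libraries shared 27 to 35 of all barcodes at this UMI minimum. Exactly 4 marker UMIs, the least the rule takes, were held by 14 members. Just outside it, 5, 4, 5 and 5 barcodes per library had 3 marker UMIs over at least 2 markers and passed the other limits. A further 4, 7, 12 and 10 barcodes met the marker minimum and exceeded the limit on Flt1, and 7, 6, 8 and 2 exceeded a neuronal limit.

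Kat6a itself was counted 11 and 7 times in the Control members and 11 and 1 times in the Kat6a-cKO members, and it fell below the filter on low counts. In CPM, which scales the UMIs of a gene by the summed UMIs of its library and class of barcodes, its level was 239, 240, 206 and 40.0 in the members and 78.9 to 85.5 in all other barcodes. The single UMI in Kat6a-cKO 2 is the lowest value, and the other 3 libraries lie close together. A count can come from any stretch of the transcript, with or without the floxed part, and so does not check the deletion. The Cre transgene was counted once in the members, in Kat6a-cKO 1. Neurod6 had 2 and 3 UMIs in Control against 2 and 0 in Kat6a-cKO members, a level of 0 to 103 CPM. All other barcodes held at most 37.8 CPM of it. In barcodes of 200 to 900 UMIs, whose content is taken below as free RNA with a limit given there, Neurod6 was at 151.8 to 339.1 CPM. These values lay above those of the members in each library.

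The label was checked against fixed marker lists. Among 3658 genes with 10 or more UMIs in the members, 19.5% reached at least 2-fold the CPM of all other barcodes in each library. Of the pericyte list, 9 of its 17 genes had 10 UMIs and all 9 reached that fold. Of the fibroblast list, 13 of the 15 genes with 10 UMIs did, out of 23 listed. Of the smooth muscle list, all 4 genes with 10 UMIs did, out of 15 listed, of which 4 had no UMI. These counts are read from nuclei chosen on genes of the same cell types, so they describe the choice and are no test of it. With 5 CPM added to both levels, Atp13a5, a transporting ATPase of brain pericytes, led these genes by fold. It stood at 2123 CPM in the members and 3.17 CPM in the other barcodes. Ebf1, a transcription factor of pericytes, followed at 1348 and 3.47 CPM, ahead of Rbpms, an RNA-binding protein, at 1237 and 2.87 CPM. Slc6a20a, a proline transporter, stood at 1068 and 1.98 CPM, and Cped1, of the fibroblast list, at 1576 and 5.60 CPM.

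The smooth muscle list summed to 911 to 1557 CPM on the mural side defined below and 15.6 to 22.2 CPM in all other barcodes. Its 4 genes with 10 UMIs were Carmn, a noncoding RNA of smooth muscle, with 29, Mylk, the kinase of the myosin light chain, with 15, and Lmod1 and Myl9 with 12 each. Of Lmod1, 11 of the 12 UMIs lay in the 11 nuclei rich in Trpm3 described below. The defining contractile genes were low. Acta2, smooth muscle actin, had 1 UMI in all 57 members, and Myh11, smooth muscle myosin, had 7. Tagln had 2, and Cnn1 had 0. By a rule of 2 or more contractile genes and 3 or more UMIs, 3 of 27 mural-side nuclei were of a smooth muscle kind, 1 each in Control 1, Control 2 and Kat6a-cKO 2. These 3 held 6 UMIs of Mylk, 2 of Myl9, 1 each of Acta2 and Myh11 and 0 of Tagln and Cnn1, beside 49 UMIs of Atp13a5. The term mural is used below for the side set by Rgs5 and Abcc9, without a split into pericytes and smooth muscle.

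RNA of other cell types was present in the sums to a degree that depended on the type. Of 13 endothelial genes, 8 had no UMI in the members, among them Cldn5 of tight junctions and Pecam1 of endothelial contacts. A count of 0 allows up to 19.5 CPM over all members, and this limit covers counting error only. The macrophage genes Mrc1, F13a1 and Cd163 also had no UMI. The excitatory neuron list summed to 1670 to 2976 CPM in the members and to 8368 to 9174 CPM in the other barcodes. In barcodes of 200 to 900 UMIs, whose content is taken here as free RNA, it summed to 10820 to 13020 CPM. Scaled on these neuronal genes, free RNA came to 17.97 to 23.1% of the members' counts with the profile of barcodes of 200 to 900 UMIs, and to 23.1 to 60.3% with that of 10 to 100 UMIs. By the first profile it was 20.3 to 38.3% of the counts on the mural side defined below and 11.4 to 15.6% on the fibroblast side. By the second it was 76.3% and 100% on the mural side of Control 1 and 2 and 35.7% and 41.8% in Kat6a-cKO. The share was capped at 100%, so the Control 2 value is a ceiling rather than an estimate. On the fibroblast side the second profile gave 21.7 to 25.4%. The share that free RNA has in each comparison of levels below is given only through the subtraction alternatives. The profile of 200 to 900 UMIs also held 2556 to 3159 CPM of microglia and macrophage genes, against 167 to 246 CPM in all other barcodes. Oligodendrocyte genes were at 1744 to 1984 CPM in it, against 571 to 792 CPM. Whether these barcodes hold nuclei of few UMIs beside free RNA was not tested. The shares and the subtraction that use this profile carry that limit. The astrocyte list stood out in 1 library, with 2664 CPM in Kat6a-cKO 1 and 760 to 821 CPM in the other 3. Slc1a2, the astrocytic glutamate transporter, was at 174 and 205 CPM in Control against 1782 and 200 CPM in Kat6a-cKO. Without the 2 nuclei that held 55 and 33 of its UMIs, Kat6a-cKO 1 came to 178 CPM.

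**Figure D1:**
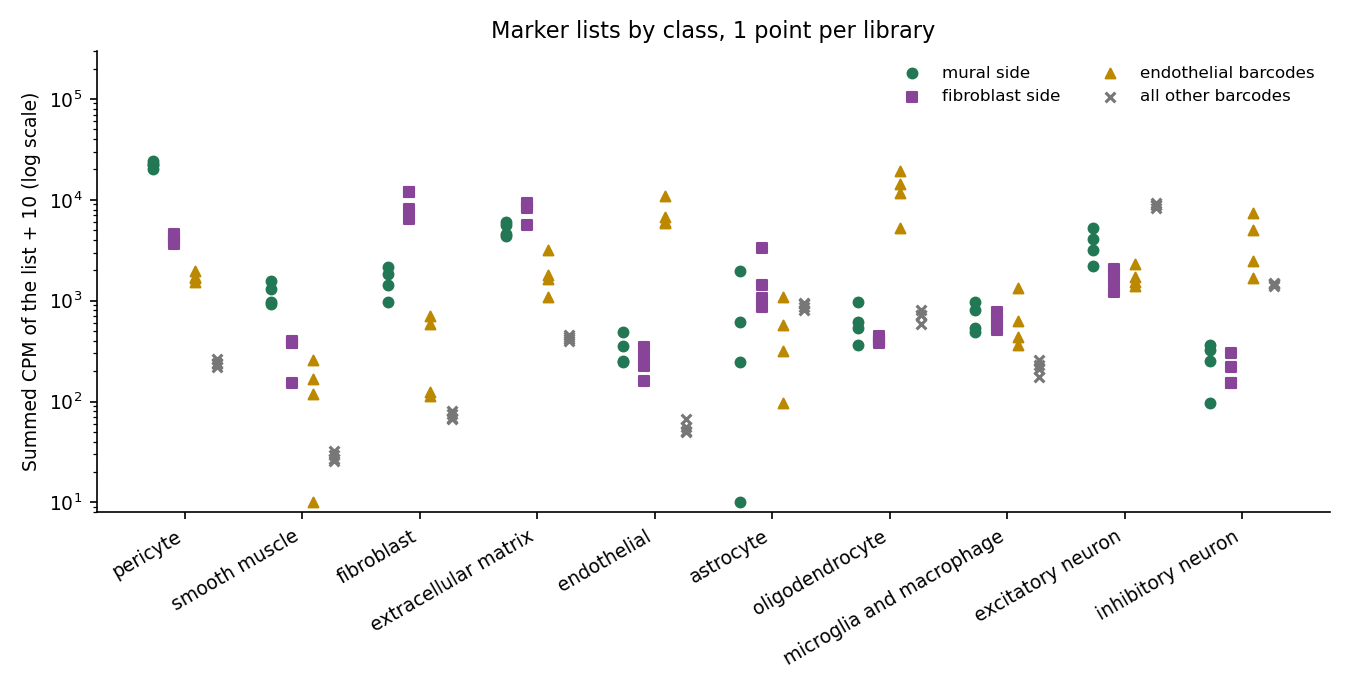
Summed CPM plus 10 of 10 marker lists (log scale) in mural-side members, fibroblast-side members, endothelial barcodes and all other barcodes, with 1 point per library. The pericyte list is highest on the mural side in each library (20040 to 24310 CPM) and the fibroblast list on the fibroblast side (6417 to 12030 CPM), while the endothelial barcodes also hold 5208 to 19230 CPM of oligodendrocyte genes.

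The members were divided into 2 sides by 5 of the rule genes. A nucleus was put on the mural side where Rgs5 and Abcc9 together exceeded Slc6a13, Bnc2 and Col1a2 together, and on the fibroblast side where the reverse held. This gave 27 mural-side and 30 fibroblast-side nuclei, no tie, and 8 nuclei in which the sides differed by 2 UMIs or fewer. Abcc9 had a UMI in 27 of 27 mural-side and 1 of 30 fibroblast-side nuclei. Col1a2, a chain of type I collagen, had one in 0 of 27 and 23 of 30, and Slc6a13, a GABA and taurine transporter, in 5 of 27 and 25 of 30. Pdgfrb, a rule gene that did not enter the split, had a UMI in 25 of 27 mural-side and 15 of 30 fibroblast-side nuclei. Its level was 1030 to 1187 CPM on the mural side in the 4 libraries, 186 to 250 CPM on the fibroblast side and 1.53 to 2.11 CPM in all other barcodes. As a gene of the selection rule, its level above the other barcodes follows from the choice of members. The rule asks for at least 2 markers, and fewer genes set the mural than the fibroblast side. The difference of Pdgfrb between the sides can therefore also follow from the rule, and it is given only as a description. The median nucleus held 1701 UMIs on the mural and 3042.5 on the fibroblast side, so shares of nuclei with a UMI are not matched for depth between the sides.

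**Figure D2:**
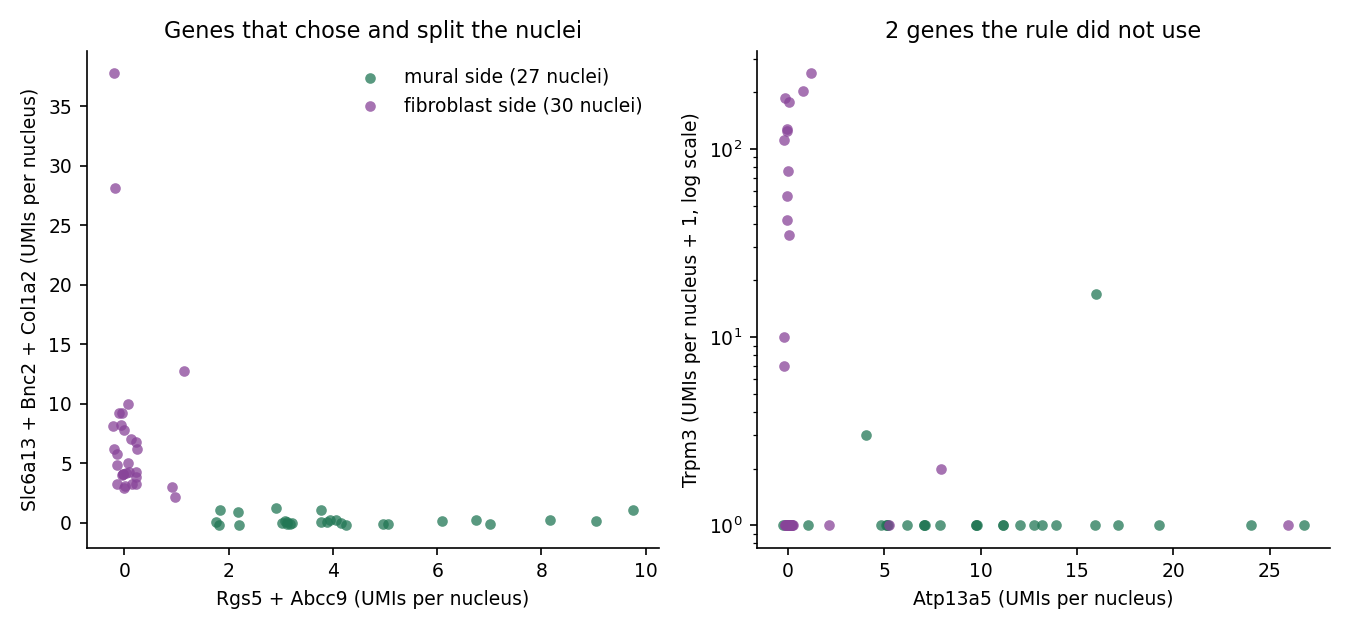
UMIs per nucleus in the 57 members. The left plot shows Rgs5 plus Abcc9 against Slc6a13 plus Bnc2 plus Col1a2, which set the sides, and the right plot shows Atp13a5 against Trpm3 plus 1 (log scale), with small sideways shifts so that equal points can be seen. Atp13a5 reaches 27 UMIs on the mural side, and Trpm3 is at 34 to 251 UMIs in 11 fibroblast-side nuclei.

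The leading genes of the mural side varied among its nuclei. Atp13a5 (chromosome 16, 29231851 to 29378732 of GRCm38, GENCODE M21) had a UMI in 26 of 27 mural-side nuclei, with a median of 10 and a range of 0 to 27. Dlc1, a GTPase-activating protein, had a median of 11 UMIs (0 to 32), and Ebf1 a median of 5 (0 to 15). In Kat6a-cKO 1, 1 nucleus had 14 UMIs of Vtn, vitronectin, with 1 of Atp13a5 and 0 of Dlc1 and Ebf1, and another had 16 of Trpm3 and 33 of Slc1a2. Atp13a5 was at 6226 and 5697 CPM in Control against 4832 and 5313 CPM in Kat6a-cKO on the mural side, and at 717, 0, 499 and 148 CPM on the fibroblast side, where 39 of its 43 UMIs lay in 3 nuclei described below. Every library was thus higher on the mural side, and the genotypes lay close together there. Notch3, the Notch receptor of mural cells, had 22 UMIs on the mural side and 1 on the fibroblast side, and Kcnj8, the pore of the KATP channel, had 7 and 1. Higd1b, Ndufa4l2 and Cox4i2, which mark brain pericytes in whole cells, had 2, 3 and 4 UMIs on the mural side and 0 on the other.

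The sides were compared over the 4 libraries with the library as a block, leaving out the genes of the rule. Of 425 genes tested by edgeR's quasi-likelihood test at a Benjamini-Hochberg adjusted p under 0.05, 96 (22.6%) were higher on the fibroblast side and 72 (16.9%) on the mural side. Both sides come from the same libraries and were set by marker levels in the same nuclei, so these calls describe 2 classes already chosen to be unlike. All 5 genes of the fibroblast list that could be tested were higher on the fibroblast side, with a median log2 difference of 3.65. Of 7 pericyte genes tested, 6 were higher on the mural side and 0 on the fibroblast side, with a median of −2.12. The median over all 425 genes was 0.11. Leaving out 1 library gave 105 to 155 calls, the fewest without Kat6a-cKO 1.

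Bmp6 and Lama1 were among the genes of largest difference on the fibroblast side. Bmp6, a ligand of the bone morphogenetic protein family (chromosome 13, 38345107 to 38500302), was at 2416, 817, 2175 and 2071 CPM on the fibroblast side and had no UMI in any mural-side nucleus. Its 197 UMIs lay in 23 of 30 fibroblast-side nuclei and made it at least 35.1-fold higher there, against a floor of 3 counts over the 4 libraries (edgeR adjusted p 1.18e-14). Lama1, the laminin α1 chain, had 147 UMIs against 0, at least 26.2-fold, and was at 2071, 1490, 927 and 888 CPM. Of the 4 genes of the matrix list that could be tested, Lama1 alone passed, and the median log2 difference of the 4 was −0.05. The values of Bmp6 were lowest in Control 2, and those of Lama1 were lower in both Kat6a-cKO libraries than in both Control libraries. Col4a6, a chain of type IV collagen, had 63 against 0 (at least 11.2-fold). The metalloproteases Adam12 (101 against 0, at least 18.01-fold) and Adamts12 (63 against 0, at least 11.2-fold) stood with them. Flrt2, a membrane protein of cell guidance, had 113 against 1, a ratio of 60.4 with an exact counting interval of 10.6 to 2408.

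The transporter list was split between the sides, with 2 of 6 genes tested higher on each and a median of −0.48. Slc7a11, which exchanges cystine for glutamate (chromosome 3, 49892526 to 50443614), had 150 UMIs against 0, at least 26.7-fold, at 1832 and 2019 CPM in Control against 927 and 962 CPM in Kat6a-cKO. Acss3, an acyl-CoA synthetase, had 71 against 0 (at least 12.7-fold). Ptgds, the synthase of prostaglandin D2, was at 4939, 2019, 6310 and 4439 CPM against 119.7, 119, 39.6 and 87.1 CPM, a log2 difference of 5.89 ± 0.63 (SE, n = 4 libraries, edgeR adjusted p 5.36e-18). Of the members' UMIs of Ptgds, 1 nucleus per library held 99 of 187 and 36 of 43 in Control and 130 of 178 and 58 of 61 in Kat6a-cKO. Apod, a lipid carrier, differed by 5.04 ± 0.64 (edgeR adjusted p 5.2e-13). Trpm3, a cation channel (chromosome 19, 22139046 to 22995410, with Mir204 and 4 other genes inside or across it), was the most abundant of these genes at 16440, 5287, 19640 and 8581 CPM against 0, 0, 634 and 174 CPM, a log2 difference of 5.90 ± 0.47 (edgeR adjusted p 3.3e-32). Its fibroblast-side values were lowest in Control 2 and do not overlap the mural-side values. The potassium channel Kcnk2 had 97 UMIs against 1, a ratio of 51.9 (exact counting interval 9.10 to 2070).

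Ion channels were among the leading genes of the mural side. Trpc4, a cation channel, was at 1197, 949, 911 and 1742 CPM on the mural side and at 53.1, 0, 0 and 0 CPM on the fibroblast side, so the lowest mural value exceeded the highest fibroblast value. Its 61 UMIs against 2, in 20 of 27 and 1 of 30 nuclei, gave a ratio of 57.0 (exact counting interval 15.1 to 482). The chloride channel Ano1 had 19 against 1, in 9 of 27 and 1 of 30 nuclei. Of 8 ion channel genes tested, 5 were higher on the mural side, and 2 on the fibroblast side, Trpm3 and Stim1, the calcium sensor of the endoplasmic reticulum (1.75 ± 0.49, edgeR adjusted p 0.00161).

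Of 5 genes tested from the list of vasoactive receptors and effectors, 4 were higher on the mural side and 1 on the fibroblast side. Gucy1b1, a subunit of the nitric oxide receptor, had 26 UMIs against 1. Of the 26, 24 lay in Kat6a-cKO (15 and 9) and 1 in each Control library, or 120 and 119 CPM in Control against 594 and 784 CPM, and Control 2 also had the 1 UMI of the fibroblast side. It was called in the main comparison (edgeR adjusted p 0.00995) but not with free RNA of 200 to 900 UMIs subtracted (edgeR adjusted p 0.0746), an alternative chosen after seeing the data. Prkg1, the kinase activated by cyclic GMP, differed by −1.58 ± 0.40 (fibroblast over mural, edgeR adjusted p 3.94e-04). Pde3a and Pde4d, phosphodiesterases, differed by −3.71 ± 0.82 and −2.14 ± 0.46. Rock2, a protein kinase, went the other way at 1.47 ± 0.55 (edgeR adjusted p 0.0227). Pde1a, another phosphodiesterase of the list, had 49 UMIs on the fibroblast and 4 on the mural side and was not among the genes tested. Endothelin and angiotensin receptors, Ednra and Agtr1a, had no UMI in the members.

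Grm7, a metabotropic glutamate receptor, was among the mural-side genes. Its levels were 5747 and 1543 CPM in Control against 2693 and 3048 CPM in Kat6a-cKO on the mural side, against 79.7, 96.1, 321 and 74.0 CPM on the fibroblast side. The log2 difference was −4.27 ± 0.54 (edgeR adjusted p 4.8e-13), and 23 of 27 mural-side nuclei had a UMI. Of the 51 UMIs in Control 1, 31 lay in 1 nucleus. Tbx3os1, an antisense transcript of the transcription factor gene Tbx3, had 30 UMIs against 2. Its gene overlaps Tbx3, and whether the counting used strand is not given in the sources used here, so the 2 genes cannot be told apart.

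**Figure D3:**
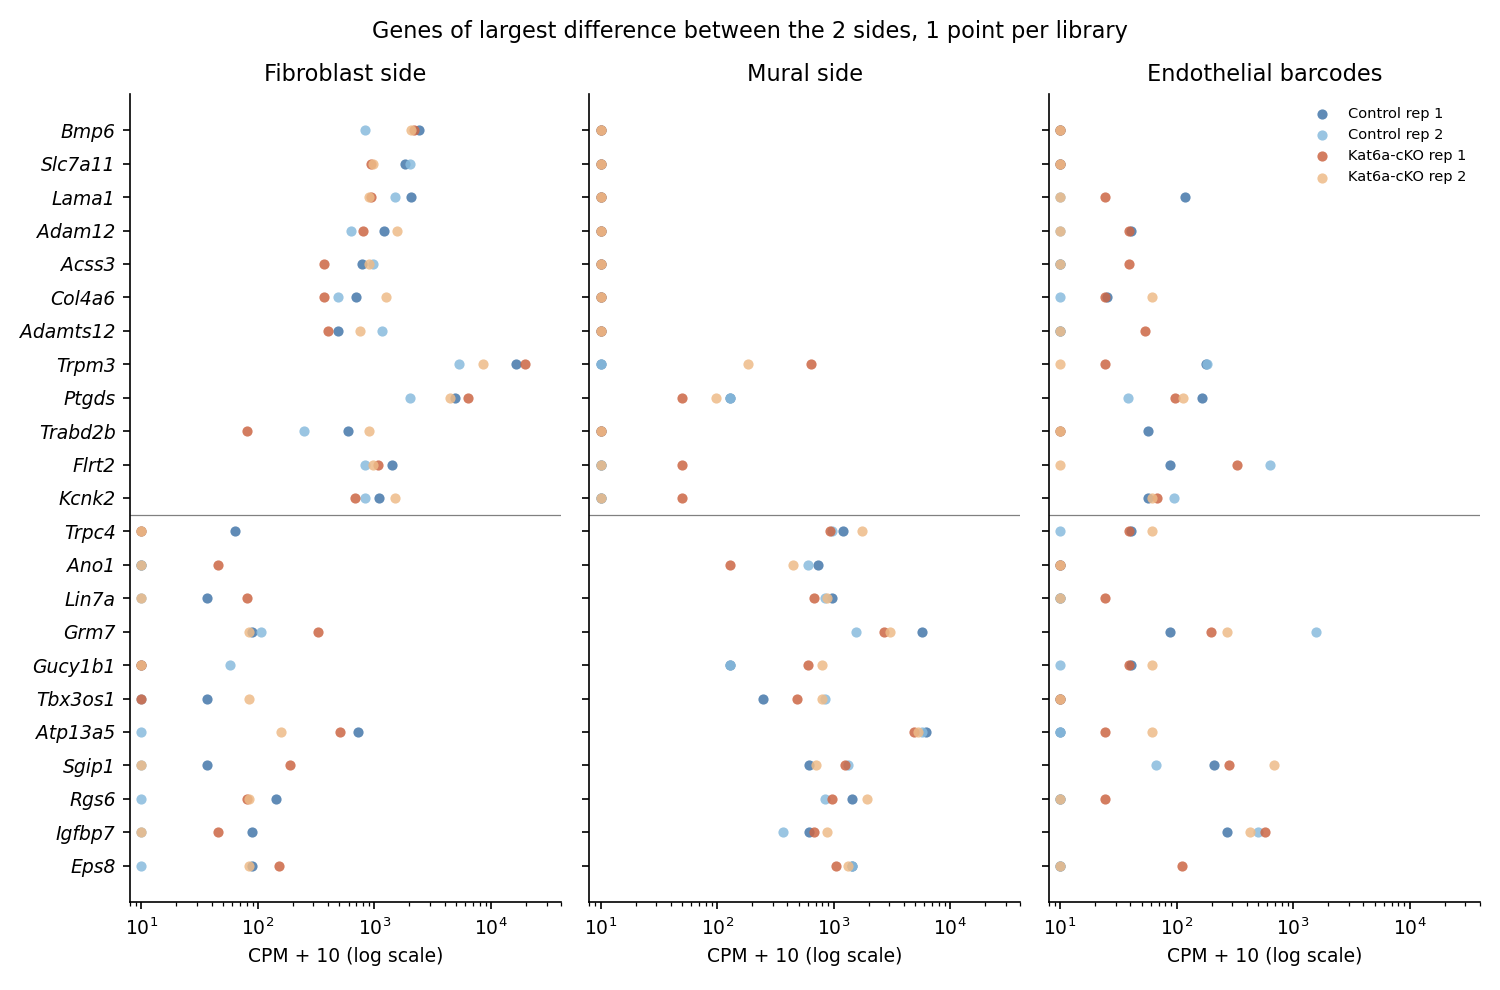
CPM plus 10 (log scale) of genes of largest log2 difference between the sides, 12 higher on the fibroblast side and 11 on the mural side, on the fibroblast side, on the mural side and in endothelial barcodes, with 1 point per library. Genes above the grey line are higher on the fibroblast side and those below it on the mural side, and points at 10 are libraries without a UMI.

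Not all genes of the vessel wall separated the sides. Lama2, the laminin α2 chain, was at 2634, 949, 1267 and 1742 CPM on the mural side and 1859, 1490, 1676 and 1184 CPM on the fibroblast side, with overlapping ranges and a log2 difference of 0.13 ± 0.43. Lamc1, the laminin γ1 chain, differed by −0.24 ± 0.46, and Col4a1 of the basement membrane by −0.42 ± 0.64. Slc6a20a was at 712 to 1481 CPM on the mural and 673 to 1176 CPM on the fibroblast side, a difference of −0.05 ± 0.45. None of these passed the test, which does not show that they are equal.

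Fibroblast-side nuclei also varied. After their values were seen, they were set out by 3 genes, and the values that follow are a description with no test. Trpm3 was at 34 to 251 UMIs in 11 of the 30 nuclei and at 0 to 9 in the other 19, 16 of which had none. The 11 came from all 4 libraries, 5 and 1 in Control against 3 and 2 in Kat6a-cKO. Bnc2 was at 11 to 37 UMIs in 3 nuclei, 2 in Control 1 and 1 in Kat6a-cKO 2, and at most 5 elsewhere. Another 3 had 5 or more UMIs of Atp13a5 beside their fibroblast-side markers, and 13 nuclei had none of these features. Those 3 held 39 of the 43 UMIs of Atp13a5 on the fibroblast side, 26, 8 and 5 each, a count that their choice sets from below. Dlc1 was at 5623 CPM in the 3 and 6329 CPM in the 24 mural-side nuclei outside the smooth muscle kind, with 11, 20 and 6 UMIs in the 3. Pde8b, a cyclic AMP phosphodiesterase, was at 4255 CPM in the 3 and 5900 CPM in the 24. In the 13 nuclei with none of the features Dlc1 was at 1650 CPM and Pde8b at 454 CPM. The 3 also held fibroblast-side genes that had no UMI on the mural side, with Bmp6, a BMP ligand, at 3040 CPM, and Lama1, a laminin chain, and Acss3 at 1064 CPM each. All 20 of their UMIs of Bmp6 lay in 1 nucleus, the one with 6 of Dlc1.

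The 11 nuclei rich in Trpm3 and the 13 others held nearly equal sums, 42009 and 41827 UMIs. The 11 include a barcode of mixed content in Kat6a-cKO 1 with 7934 UMIs, 251 of them Trpm3 and 55 Slc1a2, and the 13 include the other mixed barcode, in the same library, with 2987 UMIs. Of astrocyte genes, Slc1a2 had 60 UMIs in the 11 and 8 in the 13, and 5 and 8 without the mixed barcodes. Slc4a4 had 26 and 11, and 11 in each without them, and Slc1a3 had 40 and 15, and 33 and 14 without them. Of the other genes given here, leaving out the mixed barcodes turned the order of Col3a1 alone. Ptgds had 450 UMIs in the first and 11 in the second, and Adam12 had 88 and 9. Aldh1a2, which makes retinoic acid, had 20 and 1, Ranbp3l had 31 and 1, and Slc13a3, a carrier of dicarboxylates, had 22 and 1. Pdgfd, a PDGF ligand, had 30 and 2, Tgfbr3, a coreceptor for TGF-β, had 36 and 5, and Lgr4, an R-spondin receptor, had 20 and 3. Other genes had more UMIs in the 13. Apod had 73 and 225 UMIs, and 115 of the 225 lay in 1 Control 1 nucleus of 5140 UMIs. Itih5, which binds hyaluronan, had 20 and 97, and Cemip, which breaks hyaluronan down, 11 and 94. Col12a1 had 0 and 28, Bgn 0 and 18, F3, the tissue factor of coagulation, 1 and 29, and Pdgfrb 2 and 15. Of the UMIs in the 13, 1 nucleus held 14 of the 28 of Col12a1, 12 of the 18 of Bgn and 14 of the 29 of F3. Among matrix genes, Col3a1 was at 15 and 11 UMIs, and at 8 and 11 without the mixed barcodes. Col23a1 was at 16 and 8, 6 of the 8 in 1 nucleus, Lamc1 at 16 and 62, and Lama2 at 70 and 78. Col1a1, Col1a2 and Slc6a13 were counted in both, with 21 and 34, 16 and 29, and 35 and 27 UMIs.

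The 3 nuclei rich in Bnc2 differed from both. They held 9623 UMIs in all, with 0 of Slc7a11, Slc6a13 and Apod, and 14 of the 15 fibronectin (Fn1) UMIs of the members. They also held the 6 members' UMIs of Slc47a1, an organic cation exporter, 10 of 15 of the efflux pump Abcg2 and 9 of 9 of Abcb1a. Cldn11, a claudin, had 7 of its 13 UMIs in them.

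Members were next compared with 59 endothelial barcodes (16, 8, 28 and 7 per library), chosen by endothelial genes and near absence of the members' markers, to separate genes of the wall cells from genes of vessels at large. Of 1314 genes tested, leaving out those of either rule, 220 (16.7%) were higher in the members and 304 (23.1%) in the endothelial barcodes. All 6 fibroblast genes tested and 6 of 7 pericyte genes were higher in the members. Atp13a5 had 326 UMIs in the members and 2 in the endothelial barcodes, a ratio of 199.9 (exact counting interval 54.9 to 1658). Mrvi1, a target of the cyclic GMP kinase, had 61 against 0 and the receptor Ror2 48 against 0, at least 24.9-fold and at least 19.6-fold. Ebf1 was shared, at 1130, 855, 1726 and 1520 CPM in the members and 1190, 714, 1067 and 726 CPM in the endothelial barcodes, a log2 difference of 0.33 ± 0.47 that did not pass. The members' value joins unlike sides, with Ebf1 at 2374 to 3367 CPM on the mural and 240 to 664 CPM on the fibroblast side. In each library the mural side was above and the fibroblast side below the endothelial barcodes. The basement membrane collagen genes Col4a1 and Col4a2 differed by −0.19 ± 0.45 and 0.13 ± 0.49.

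Of 7 ion channel genes tested, 6 were higher in the members and 0 in the endothelial barcodes. Lama2, of the matrix list, was at 1334 to 1999 CPM in the members and 0 to 155.5 CPM in the endothelial barcodes, a difference of 5.11 ± 0.64 (edgeR adjusted p 1.1e-08). Cacna1c, the L-type calcium channel, differed by 2.77 ± 0.51 (edgeR adjusted p 1.64e-05) and Itpr1, the IP3 receptor, by 2.77 ± 0.49 (edgeR adjusted p 8.22e-06). Itpr2 differed by −0.79 ± 0.46 and Lama4, another laminin chain, by 1.98 ± 0.84, and neither passed (edgeR adjusted p 0.183 and 0.0536). Of the 12 matrix genes tested 7 were higher in the members and 1, Fn1, was higher in the endothelial barcodes, in 3 of 4 libraries (−2.08 ± 0.64, edgeR adjusted p 0.00778).

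Of 11 transporters tested, 6 were higher in the members and 4 in the endothelial barcodes. Slc2a1, the glucose transporter GLUT1, had 169 UMIs there and 0 in the members, at least 45.9-fold higher, and Atp10a, a lipid flippase, had 208 against 0, at least 56.5-fold. The endothelial barcodes also held oligodendrocyte genes, with Mbp of myelin at 1039 to 3680 CPM against 0 to 40.0 CPM in the members, and the part of these mixed barcodes in the other calls was examined by leaving them out. With 12, 6, 22 and 5 endothelial barcodes left, an alternative chosen after seeing the data, 187 genes were higher in the members and 191 in the endothelial barcodes of 831 tested. Of the 310 called genes still tested, 299 kept their direction and 262 were called. Leaving out 1 library gave 324 to 445 calls, the fewest without Control 1.

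Members made up 0.136% and 0.0921% of barcodes in Control against 0.174% and 0.118% in Kat6a-cKO. The exact 95% binomial intervals reached from 0.0762 to 0.224% and 0.0442 to 0.169% in Control and from 0.106 to 0.268% and 0.0608 to 0.206% in Kat6a-cKO, so all 4 overlap. The means were 0.114% ± 0.0312 and 0.146% ± 0.0395 (SD, n = 2 libraries per genotype), with a two-sided exact permutation p of 0.667. With 2 libraries against 2 this test cannot go under 0.33. The direction turned with a minimum of 2000 UMIs and with no UMI allowed of the limit genes. As a share of members and endothelial barcodes together, members were 48.4% and 55.6% in Control against 41.7% and 63.2% in Kat6a-cKO, which overlap (a difference of 0.44 percentage points, exact permutation p 1.0). The genotypes did not overlap, with Kat6a-cKO higher and p at the smallest value, under a rule of 3 markers and 6 UMIs (0.0454% and 0.0460% against 0.0868% and 0.0589%) and with each barcode thinned to 1000 UMIs (0.0182% and 0.0184% against 0.0347% and 0.0883%). These rest on 5, 5, 10 and 6 members and on 2, 2, 4 and 9 thinned barcodes. Thinning was a single random draw over all barcodes, after which the whole rule was applied again. Barcodes over a limit at full depth could thus enter, and those chosen need not be among the members. At a minimum of 500 UMIs the genotypes did not overlap either (0.0308% and 0.0154% against 0.1045% and 0.0907%). The members were then 16, 10, 20 and 13, nearly as before. The barcodes counted, however, came to 51879 and 64915 in Control against 19142 and 14328 in Kat6a-cKO. Without the mixed barcodes the difference was 0.0228 percentage points, against 0.0315 with them, and the genotypes overlapped.

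The mural side took 26.7% and 40.0% of the members in Control against 60.0% and 58.3% in Kat6a-cKO. The shares did not overlap between genotypes, and the exact permutation p was 0.33, the smallest possible. These are 4 and 4 nuclei of 15 and 10 in Control and 12 and 7 of 20 and 12 in Kat6a-cKO, and the exact binomial intervals overlap. In 5 other settings, drawn largely from the same nuclei and so no repeats, the shares did not overlap either, Kat6a-cKO being higher in each. At a minimum of 500 UMIs they were 31.2% and 40% against 60% and 53.9%, and with 3 markers and 6 UMIs 40% and 20% against 80% and 50%. With no UMI of the limit genes they were 16.7% in both Control libraries against 50% and 25%. Without the mixed barcodes they were 26.7% and 40% against 66.7% and 58.3%. With sides that differ by at least 2 UMIs they were 26.7% and 40% against 50% and 58.3%. The latter are shares of all members, 3 of which fell on neither side in Kat6a-cKO 1. At a minimum of 2000 UMIs the shares were 9.09%, 25.0%, 30.0% and 16.7% and overlapped. When each barcode was thinned to 1000 UMIs and the rule applied again, 2, 2, 4 and 9 barcodes met it. Their mural-side shares were 50%, 100%, 75% and 77.8%. The median mural-side nucleus is the shallower one, as given above. Within the mural side the library medians were 1813.5 and 2136 UMIs in Control against 1663.5 and 1491 in Kat6a-cKO. On the fibroblast side they were 3712 and 3231.5 against 3042.5 and 2644. Depth of the members thus differed between genotypes, and its part in the levels compared below was not tested.

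**Figure D4:**
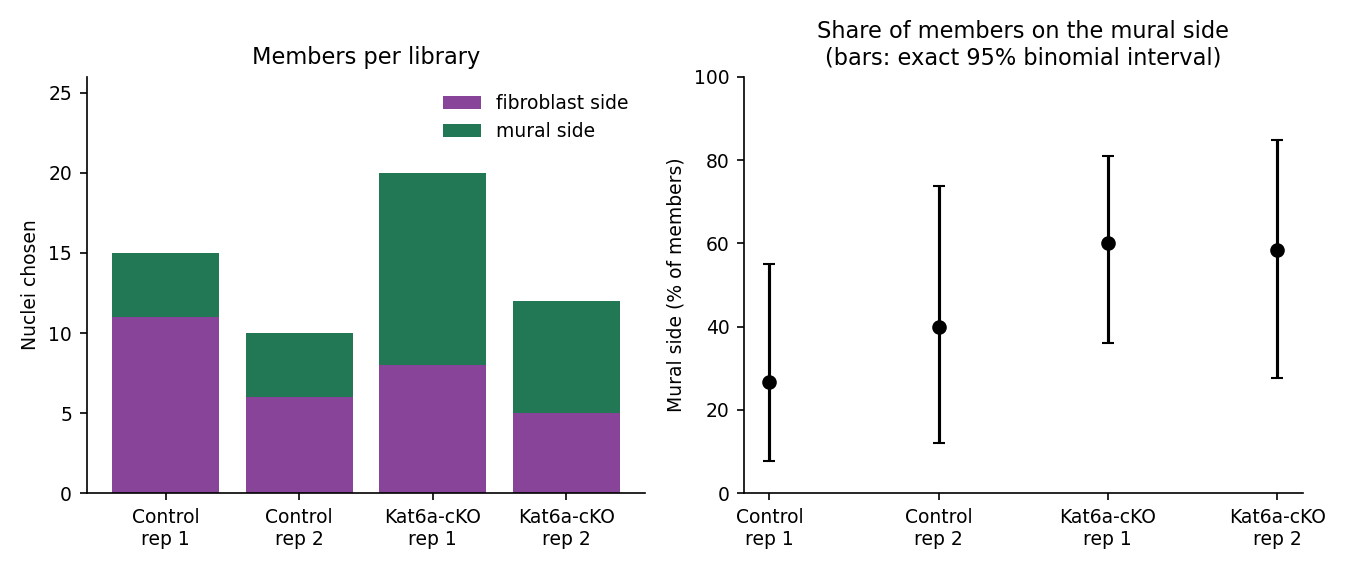
Number of members per library by side (left, stacked bars), and the percent of members on the mural side with its exact 95% binomial interval (right). Mural-side shares are 26.7% and 40.0% in Control against 60.0% and 58.3% in Kat6a-cKO, with overlapping intervals.

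No gene passed the threshold between the genotypes within the members. Of 810 genes tested on sums per library, edgeR called 0 (0% of those tested), with 73 at an unadjusted p under 0.05. By DESeq2 there were 0 calls and 20 genes under that unadjusted level. In 319 genes (39.4%) the libraries of the genotypes did not overlap, 156 higher and 163 lower in Kat6a-cKO. The 810 include 5 rule genes, of which 3, Pdgfrb, Abcc9 and Col1a2, are among the 319. The sums join both sides, and the mural-side shares above differ between the same libraries. Leaving out Control 2 gave 21 calls and leaving out Kat6a-cKO 2 gave 35, with the lone remaining library assumed to vary like the other group, and leaving out either of the other libraries gave 0. With no filter on low counts 9 genes were called, and with a filter at 10 CPM 8.

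The pericyte and fibroblast lists lay on opposite sides of 0, although none of their genes passed. All 7 pericyte genes tested had positive log2 differences (Kat6a-cKO over Control), with a median of 0.62, and 5 of 6 fibroblast genes were negative, with a median of −1.83. The median of all 810 genes was 0.02. Atp13a5 was at 1717 and 1642 CPM in Control against 2552 and 2520 CPM in Kat6a-cKO, a difference of 0.62 ± 0.27 (SE, n = 2 libraries per genotype, edgeR adjusted p 0.556). Its Control and Kat6a-cKO values did not overlap in the members as a whole. Within the mural side the difference was −0.10 (edgeR adjusted p 0.957), and within the fibroblast side −0.10. Other pericyte genes went both ways within the mural side. Dlc1 and Vtn differed by −0.34 and −0.22 there, and Ebf1, Slc6a20a and Cald1 by 0.28, 0.86 and 1.00, without passing. Of the fibroblast list, Col1a1, Dcn, Itih5 and Apod differed by −1.976, −1.727, −1.573 and −1.395 within the fibroblast side (edgeR adjusted p 0.456 each). Cped1 differed by 0.393 there (edgeR adjusted p 0.997), and none of these passed. Fits within a side called 0 of 101 genes on the mural and 0 of 440 on the fibroblast side, with 9 and 17 genes at an unadjusted p under 0.05.

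Apod had the smallest p. Its level was 3434 and 2942 CPM in Control against 844 and 840 CPM in Kat6a-cKO, a difference of −1.89 ± 0.29 (edgeR adjusted p 0.151), and −1.39 within the fibroblast side (edgeR adjusted p 0.456). Both Control libraries lie above both Kat6a-cKO libraries, but 115 of the 158 UMIs of Control 1 lay in 1 nucleus, without which the library came to 1052 CPM. The 13 fibroblast-side nuclei with none of the features above, which hold most of the Apod counts, made up 25.7% and 55.8% of the members' UMIs in Control and 15.7% and 21.4% in Kat6a-cKO.

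Of the other 9 genes of smallest p, 6 had lower values in both Kat6a-cKO libraries than in both Control libraries, without passing the threshold. These genes were chosen by their p between the same libraries, so this separation largely follows from the choice. Over all 810 genes tested, the genotypes did not overlap in 39.4%. Slc7a11 was at 1500 and 1437 CPM in Control against 488 and 520 CPM in Kat6a-cKO (−1.52 ± 0.33, edgeR adjusted p 0.347). Itih5 was at 1521 and 1197 CPM against 356 and 440 CPM (−1.77 ± 0.36, edgeR adjusted p 0.316). Lama1 was at 1695 and 1060 CPM against 488 and 480 CPM (−1.49 ± 0.38, edgeR adjusted p 0.347). Within the fibroblast side these 3 differences were −1.0, −1.57 and −0.94, with edgeR adjusted p of 0.872, 0.456 and 0.872. Lama1 had a UMI in 23 of 30 fibroblast-side nuclei, but in Control 2 1 nucleus held 23 of its 31 UMIs. With the nucleus of most Lama1 UMIs left out of each library, it was at 1354 and 329 CPM in Control against 339 and 356 CPM in Kat6a-cKO. Without the nucleus with most of its UMIs, Itih5 in Control 2 came to 535 CPM and Slc7a11 to 748.5 CPM. F3 had 15 and 14 UMIs in Control against 1 and 0 in Kat6a-cKO, and 14 of the 15 lay in 1 nucleus. Dcn, decorin, had 24 and 25 against 10 and 3, with 14 and 13 against 4 and 2 of these in 1 nucleus each. Without that nucleus in each library, Dcn came to 245 and 473 CPM against 119.5 and 44.7 CPM. The mitochondrial ribosomal RNA mt-Rnr1 had 75 and 41 against 20 and 18, with 35 and 22 of the Control UMIs in 1 nucleus each.

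Pcdh9, a protocadherin, was the gene of smallest p with higher values in Kat6a-cKO. Its counts were 5 and 4 in Control against 65 and 14 in Kat6a-cKO, or 109 and 137 against 1220 and 560 CPM, a difference of 2.95 ± 0.58 (edgeR adjusted p 0.316). Of the 65 UMIs, 30 lay in 1 nucleus of Kat6a-cKO 1, the library with the high astrocyte sum, without which it came to 771.5 CPM. Dgkb, a diacylglycerol kinase, had 2 and 3 against 39 and 7 UMIs. Over the alternatives, neither Pcdh9 nor Apod changed direction, and their adjusted p reached from 7.71e-06 (without Kat6a-cKO 2) to 0.735 (without Kat6a-cKO 1) for Pcdh9 and from 4.93e-04 (without Control 2) to 0.728 (replicate block) for Apod with edgeR. Pde8b, a phosphodiesterase of cyclic AMP, was at 1500 and 1266 against 3527 and 3040 CPM (1.27 ± 0.29, edgeR adjusted p 0.347). The mural side held most of its UMIs in every library, and within that side the difference was 0.64 (edgeR adjusted p 0.475).

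**Figure D5:**
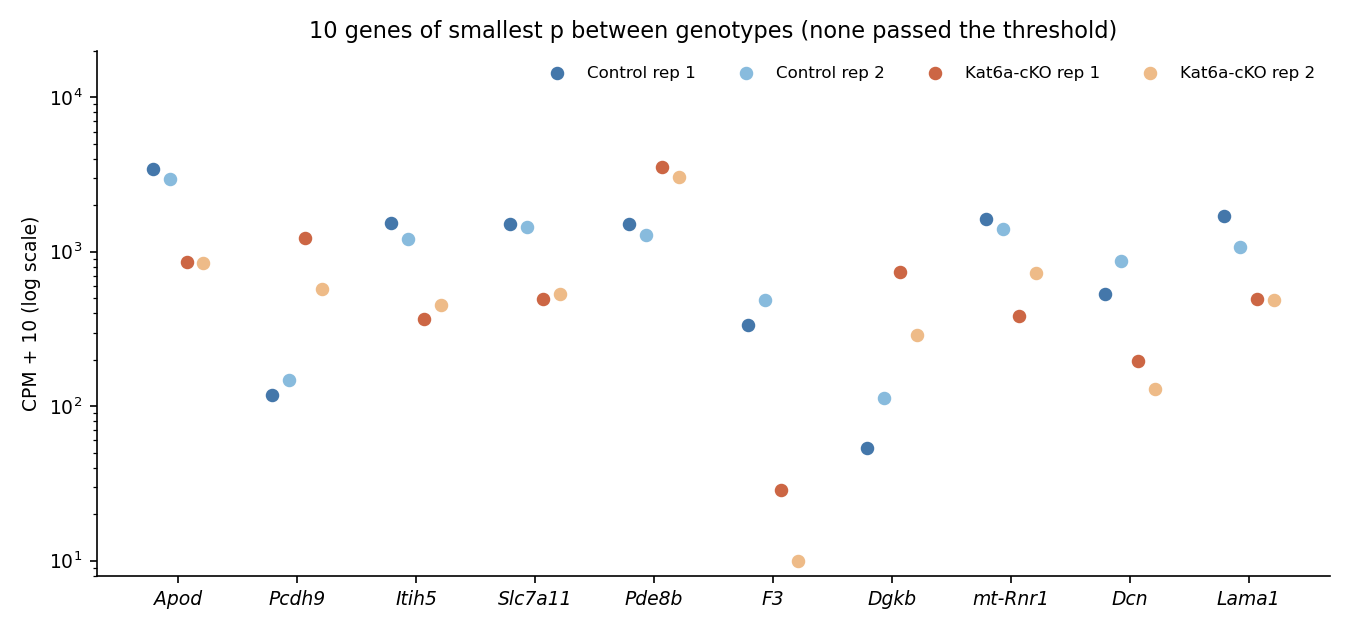
CPM plus 10 (log scale) in the members of each library for the 10 genes of smallest p between Kat6a-cKO and Control, none of which passed the threshold. Apod stands at 3434 and 2942 CPM in Control and at 844 and 840 CPM in Kat6a-cKO.

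The rule genes chose the members, so no p is given for their levels by genotype. Pdgfrb was at 348 and 479 CPM in Control against 619 and 640 CPM in Kat6a-cKO members, and Abcc9 was at 413 and 547 against 732 and 720 CPM. Col1a2 was at 369 and 513 against 206 and 280 CPM, and Slc6a13 at 608.5 and 376 against 431.5 and 480 CPM. Bnc2 was at 1543 and 205 CPM in Control against 169 and 640 CPM in Kat6a-cKO, with overlapping ranges, and the 3 nuclei rich in it lay in Control 1 and Kat6a-cKO 2. Among abundant genes outside the rule, Trpm3 differed by −0.12 ± 0.58, Prkg1 by 0.07 ± 0.35, Dlc1 by 0.26 ± 0.28 and Vtn by 0.08 ± 0.40, none of which passed.

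The title of the series names R-spondin 2 and Wnt signalling, and the members held little of either ligand class. Rspo2 had 1 UMI in the members, in Kat6a-cKO 1, Rspo3 had 2, in Control 1, and Rspo1 and Rspo4 had none. Wnt5a and Wnt4 had 13 and 8 UMIs, all on the fibroblast side. Of 34 genes of the Wnt and R-spondin list, 2 could be tested between genotypes, Tcf7l1, a transcription factor of the pathway (−1.04 ± 0.80), and Znrf3, which removes Wnt receptors (−0.55 ± 0.75), and neither passed. Against the endothelial barcodes, 2 of 6 tested were lower in the members, where 23.1% of all genes were. 1 of them was Tcf7l2, a transcription factor of the pathway, at 2381, 1170, 375 and 3162 CPM in the endothelial barcodes, whose oligodendrocyte sums were 11720, 14270, 5208 and 19230 CPM. With the mixed barcodes of both classes left out, Tcf7l2 fell below the filter on low counts and was not tested. The other, Lef1, a target and effector of the pathway in brain endothelium, was at 0 to 65.2 CPM in the members and 259 to 1370 CPM in the endothelial barcodes, a difference of −4.32 ± 0.65 (edgeR adjusted p 4.5e-07).

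The remaining pathways gave few genes with enough counts. Of the PDGF list, the ligands Pdgfb and Pdgfa had 3 and 0 UMIs in the members and 8 and 7 in the endothelial barcodes, while Pdgfd had 37 and 98. Of the Notch list 2 of 15 genes could be tested between genotypes, and of the TGF-β and BMP list 3 of 23, with 0 called in each. Notch2, the Notch receptor most counted, had 47 of its 48 UMIs on the fibroblast side, in contrast to Notch3. Bmp6 was at 1978 and 581.5 CPM in Control against 1144 and 1120 CPM in Kat6a-cKO members, a difference of −0.19 ± 0.51 with overlapping ranges. No gene of the Kat6a complex list reached the filter between genotypes, and Kat6b, the paralog of Kat6a, had 5, 4, 12 and 2 UMIs.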

How the data were processed

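For each of the 4 libraries the authors deposited a matrix of raw counts, genes by barcodes, empty droplets included (whole numbers, tested on the files). The submitters' processing notes name Seurat 4.0.1 and mm10. The aligner, the annotation, strand use and UMI handling are not given in the sources used here. Positions come from GENCODE M21 (GRCm38) for IDs that match by version.

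Members were found by the stated rule. No doublet caller was run; barcodes with more UMIs of another class list than of the members' lists (2, both in Kat6a-cKO 1) were left out as an alternative. Counts were summed per library and tested with edgeR 4.0.16 (TMM, filterByExpr, glmQLFTest; limma 3.58.1, R 4.3.3), Benjamini-Hochberg adjusted p under 0.05. SE is the log2 difference over the root of the quasi-likelihood F. DESeq2 1.42.0 was an alternative. CPM is without TMM scaling. Shares were tested by exact permutation (scipy 1.17.1). Fits were also run on counts simulated with the means, totals and trend of spread of these data. Such counts assume the fitted model, so these runs do not test it. Nothing in the labels makes the replicate numbers pairs.

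Genes named are those of the rule, up to 4 of highest CPM per list, the 12 of largest change in each direction (50 CPM or more, same direction in 4 libraries) and, between genotypes, the 10 of smallest p. 1 gene that this rule names is not reported here. Other genes were chosen after their values were seen. The members and lists were chosen with earlier results of these data known.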

Additional observations from a re-analysis of the deposited data

How the results depend on the processing

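The members are 57 nuclei with 153547 UMIs in all, and this depth limits every comparison. The difference in the share of members (Kat6a-cKO minus Control, 0.0315 percentage points) turned to −0.0183 at 2000 UMIs and to −0.000515 with no UMI of the limit genes. Without 1 library it was 0.00357 to 0.0595. Between genotypes, 0 calls became 9 without a filter on low counts, 8 with a filter at 10 CPM and 0 to 35 without 1 library. With the replicate number as a block there were 0 calls, with 51 genes at an unadjusted p under 0.05; whether equal numbers mark a pairing is not in the labels, and the pairing is a shared number only. Between sides, 168 calls became 88 at 2000 UMIs, 59 with 3 markers and 6 UMIs, 47 with no UMI of the limit genes, 91 without the library block and 105 to 155 without 1 library. Fewer genes were tested in each of these first 4 (274, 149, 146 and 198). Against endothelial barcodes, 524 calls of 1314 genes tested became 203 of 405 with 3 markers and 6 UMIs. They became 188 of 580 with no UMI of the limit genes, 293 of 739 without the library block and 324 to 445 without 1 library. Of the 293 main calls still tested without the block, 283 were called. Of the values for single named genes in these comparisons, 346, 354 and 141 kept direction and side of the threshold, 1 lost its call (Gucy1b1), 18 gained one between genotypes, and none reversed. The named genes were chosen by p or size of change in the same counts, so that they kept direction largely follows from the choice. Settings in which a gene was not tested are left out of these numbers. With free RNA subtracted by the profiles of 10 to 100 and of 200 to 900 UMIs, 0 of 528 and 0 of 689 genes were called between genotypes. Between sides the calls were 153 of 368 and 157 of 379, and against endothelial barcodes 438 of 1116 and 454 of 1201. Alternatives with free RNA of 200 to 900 UMIs, thinned barcodes and mixed endothelial barcodes left out were chosen after seeing the data.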

Other observations

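Some transporters not described above were counted unequally on the 2 sides, whose sums were 100039 UMIs (fibroblast) and 53508 UMIs (mural). Slc13a4 had 11 UMIs on the fibroblast and 0 on the mural side, Abca9 had 24 and 1, and Slc30a10, a manganese exporter, had 15 and 3, with no test of these. Slc12a2, a sodium, potassium and chloride cotransporter, was higher on the mural side, with 42 UMIs against 11 (−2.71 ± 0.64, fibroblast over mural, edgeR adjusted p 1.59e-04). Slc38a11 had 30 UMIs on the mural and 7 on the fibroblast side, and those 7 lay in the 3 fibroblast-side nuclei with 5 or more UMIs of Atp13a5. Eya2, a transcriptional cofactor, had 28 UMIs on the fibroblast side and 0 on the mural side, and Foxd1 had 11 and 1.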
